A study of Mus musculus with 2 samples.

Results

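The insulin-like growth factor (IGF) axis was examined in mononuclear cells of acutely injured mouse quadriceps through 9 genes, taken by symbol from the 32285 genes listed in the count files. These were the ligands *Igf1* and *Igf2*, the signalling receptor *Igf1r*, the clearance receptor *Igf2r* and the binding proteins *Igfbp3*, *Igfbp4*, *Igfbp5*, *Igfbp6* and *Igfbp7*. All 9 had UMIs in the cells kept. Both libraries came from male wild-type (C57BL/6J) mice of 14 weeks whose right quadriceps had been injected with barium chloride (BaCl2), a salt that kills myofibers. One library was made at day 1 post-injury and the other at day 3, each from cells pooled from several mice, so there were no replicates and no p-value is given. The muscles were digested enzymatically, mononuclear cells were collected at the interface of a density gradient, and cryopreserved cells were thawed for single-cell RNA sequencing, a preparation that leaves out intact myofibers.

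IGF-1 and IGF-2 act through the IGF-1 receptor, a tyrosine kinase upstream of PI3K, AKT and mTOR, and in muscle they promote survival, proliferation and differentiation of myogenic cells and growth of fibers. The *Igf2r* product takes up IGF-2 for degradation in lysosomes and also sorts lysosomal enzymes that carry mannose 6-phosphate. Binding proteins hold the ligands in the extracellular space. They prolong the half-life of the ligands and limit or release their action, and proteases such as the *Pappa* product cleave some of them.

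Expression was measured as unique molecular identifiers (UMIs), each of which stands for 1 captured transcript molecule. A level is the number of UMIs a gene had for every 1000000 UMIs in the same group of cells (CPM), and intervals are exact 95% confidence intervals that cover counting error only and not the variation between mice or libraries. The libraries held 74852240 UMIs for day 1 and 102565783 for day 3, and 6735 and 4627 cells were kept, with medians of 9389 and 14548 UMIs. No cell barcode was shared between the libraries. The files list 737280 possible barcodes for day 1 and 6794880 for day 3, so the library chemistry may differ although the labels name the same kit, and it cannot be told apart from the day. The limit of 7.5% mitochondrial UMIs removed 277 barcodes of day 1 and 1804 of day 3 that had enough UMIs and genes.

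Clusters were named from marker lists, and none of these markers and none of the genes of the IGF axis was used for clustering. Monocyte/macrophage-like cells numbered 3519 on day 1 and 2825 on day 3, neutrophil-like cells 2075 and 244, dendritic cell-like cells 405 and 445, and cells like fibro-adipogenic progenitors (FAPs), the connective tissue progenitors of muscle, 660 and 846. Satellite cell/myoblast-like cells numbered 201 on day 3 and only 5 on day 1, so their day 1 levels are not used. Different clusters made up most of the monocyte/macrophage-like and of the FAP-like cells on the 2 days. Neutrophil-like cells lay in the same *Acod1*-led and *S100a9*-led clusters on both days, and nearly all dendritic cell-like cells in the same *H2-Eb1*-led cluster. FAP-like cells of day 1 lay mainly in a *Cxcl5*- and *Prg4*-led cluster and those of day 3 in a *Sfrp2*- and *Col3a1*-led cluster. Summed tenocyte markers in FAP-like cells were 955 CPM on day 1 and 305 CPM on day 3, and summed mural cell markers 9.58 and 304 CPM. Dendritic cell-like cells also carried monocyte/macrophage markers, summing to 3456 CPM on day 1 and 5042 CPM on day 3. Their dendritic cell markers summed to 604 and 451 CPM, against 5.99 and 5.64 CPM in monocyte/macrophage-like cells. The macrophage clusters led by *Il1a*, *Ppbp* and *Chil3* were nearly all of day 1, and those led by *Gpnmb*, *Rsad2* and *Stmn1* nearly all of day 3. A difference between the days in monocyte/macrophage-like or FAP-like cells may therefore be one of cluster makeup, of library or of day, and these cannot be told apart. In the other classes, library and day cannot be told apart either.

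All 9 genes carry the same identifier in the files and in GENCODE M21, the annotation of the mouse build mm10 (GRCm38) that the labels name. *Igf1* lies on chromosome 10, 87858265 to 87937042 on the plus strand, *Igfbp3* on chromosome 11, 7206086 to 7213923 on the minus strand, *Igfbp4* on chromosome 11, 99041244 to 99054392 on the plus strand and *Igfbp6* on chromosome 15, 102144362 to 102149511 on the plus strand, and no gene on the same strand overlaps any of these. Among the other members, *Igf2* has the annotated gene *Gm49394* over its exons on the same strand, which the count files do not list and which the counts therefore cannot set apart. On the opposite strand lie *Igf1os* at *Igf1*, *Igf2os* at *Igf2*, *Airn* at *Igf2r*, and *Polr2b* and *Gm34648* at *Igfbp7*, all listed in the count files, and whether the counting used strand is not given in the sources used here. The promoters of these 4 genes are shown. *Igf1*, *Igfbp4* and *Igfbp6* differed by more than 2-fold between the days in macrophages, and *Igf1* and *Igfbp3* in FAPs. Other members that passed 2-fold, among them *Igf2*, *Igf2r* and *Igfbp5* in FAPs, are not shown. Each sequence is RefSeq, GRCm38.p6, and runs 5′ to 3′ on the strand of the gene from 250 bases before the start site to 50 after it. The start that RefSeq gives lies inside the GENCODE gene for *Igf1* and before it for *Igfbp6*. Capitals mark matches on either strand to the TATA box, spelled TATAAA, or to TGANTCA, a loose spelling of the motif of the AP-1 factors. No 2 of these matches overlap.
*Igf1* (chr10:87860861-87861160, plus strand): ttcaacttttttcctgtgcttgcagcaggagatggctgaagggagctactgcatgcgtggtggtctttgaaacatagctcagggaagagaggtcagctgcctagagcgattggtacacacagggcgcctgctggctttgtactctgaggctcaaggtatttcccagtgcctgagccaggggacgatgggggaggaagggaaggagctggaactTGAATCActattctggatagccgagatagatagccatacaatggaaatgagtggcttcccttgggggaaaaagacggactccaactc
*Igfbp3* (chr11:7213874-7214173, minus strand): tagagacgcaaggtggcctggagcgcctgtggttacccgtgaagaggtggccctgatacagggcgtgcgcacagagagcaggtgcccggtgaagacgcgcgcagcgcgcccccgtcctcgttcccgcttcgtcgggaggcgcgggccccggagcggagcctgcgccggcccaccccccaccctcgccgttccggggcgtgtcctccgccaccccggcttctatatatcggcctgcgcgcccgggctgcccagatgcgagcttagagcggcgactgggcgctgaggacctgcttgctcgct
*Igfbp4* (chr11:99040994-99041293, plus strand): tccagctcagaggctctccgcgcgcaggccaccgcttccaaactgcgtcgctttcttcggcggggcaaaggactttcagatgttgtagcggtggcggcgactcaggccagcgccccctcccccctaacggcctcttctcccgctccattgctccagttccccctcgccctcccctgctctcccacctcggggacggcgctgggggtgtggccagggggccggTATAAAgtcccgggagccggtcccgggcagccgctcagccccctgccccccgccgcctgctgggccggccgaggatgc
*Igfbp6* (chr15:102143936-102144235, plus strand): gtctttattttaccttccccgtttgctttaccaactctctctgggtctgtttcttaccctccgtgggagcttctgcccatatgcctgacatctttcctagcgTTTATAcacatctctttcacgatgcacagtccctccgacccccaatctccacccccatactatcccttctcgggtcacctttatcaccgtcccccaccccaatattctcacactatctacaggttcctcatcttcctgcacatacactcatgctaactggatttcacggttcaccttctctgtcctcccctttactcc
The *Igf1* window holds 1 match to TGANTCA, read as TGAATCA, beginning at position -37 from the start site. This spelling, which allows any middle base, was found in 7.81% of all 32851 windows of this length. The middle base of the *Igf1* match is A, and the match is not read as an AP-1 site. The *Igfbp4* window holds a TATA box at -28 and the *Igfbp6* window one on the other strand at -148, against 13.6% of all windows. The *Igfbp3* window has no match to either spelling and the *Igf1* window none to TATAAA. Other spellings of a TATA box were not searched, so these windows are not shown to lack one. CpG dinucleotides numbered 6 in the *Igf1* and 8 in the *Igfbp6* window but 27 in the *Igfbp4* and 37 in the *Igfbp3* window, against a median of 7 over all windows.

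Members were compared between the days in the 4 classes with at least 50 cells on both days, among genes with at least 50 UMIs in the class, and a gene was counted when its CPM differed at least 2-fold. In monocyte/macrophage-like cells, 7 members had enough UMIs. Of these, *Igf1*, *Igfbp4* and *Igfbp5* were higher on day 3, where 28.5% of all genes were, and *Igfbp6* was lower, where 5.26% of all genes were. In FAP-like cells all 9 had enough UMIs. *Igf1*, *Igf2*, *Igf2r* and *Igfbp5* were higher on day 3, against 23.2% of all genes, and *Igfbp3* was lower, against 7.15%. In dendritic cell-like cells, 4 members had enough UMIs, with *Igfbp4* higher, against 15.7%, and *Igfbp6* lower, against 3.69%. In neutrophil-like cells, 5 had enough UMIs, with *Igfbp4* and *Igfbp7* higher, against 31.2%, and 0 lower, against 7.23%. The median log2 ratio of the members with enough UMIs was 0.61 in macrophages, where that of all such genes was 0.47, and 0.88 in FAPs, against 0.30. In dendritic cell-like cells it was -0.17, against 0.28, and in neutrophil-like cells 0.63, against 0.49.

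**Figure D1:**
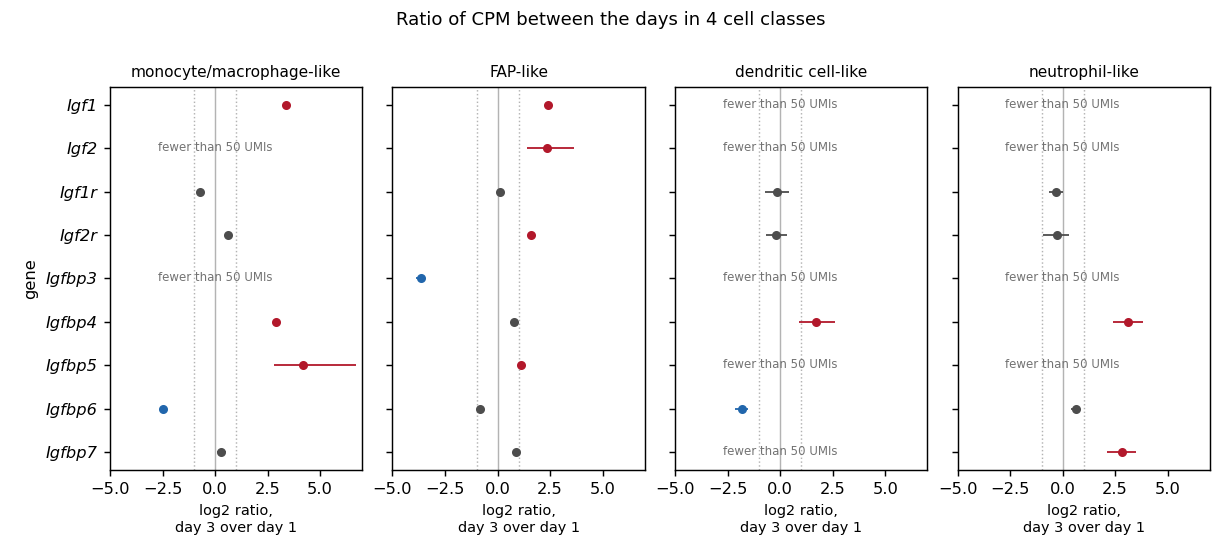
The ratio of day 3 to day 1 CPM, on the log2 scale, is plotted for each member (rows) in 4 cell classes (panels), with horizontal bars for the 95% interval of counting error and dotted lines at a 2-fold difference. Red points are at least 2-fold higher on day 3, blue points at least 2-fold lower, and members with fewer than 50 UMIs in a class have no point. *Igf1* was at 3.39 in monocyte/macrophage-like and 2.38 in FAP-like cells, *Igfbp6* at -2.46 in the former and *Igfbp3* at -3.65 in the latter.

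*Igf1*, the main ligand of muscle repair, was held almost wholly by FAP-like and monocyte/macrophage-like cells. FAP-like cells had 73.4% (95% interval 70.7 to 76.04) of its UMIs on day 1 and 61.5% (95% interval 60.5 to 62.6) on day 3, and monocyte/macrophage-like cells 26.2% (95% interval 23.6 to 28.9) and 37.4% (95% interval 36.4 to 38.4). In monocyte/macrophage-like cells its level was 6.89 CPM (95% interval 6.11 to 7.73) on day 1 and 72.4 CPM (95% interval 70.0 to 74.97) on day 3. The log2 ratio was 3.39 (95% interval 3.22 to 3.58), and the intervals of the days did not overlap. Ambient RNA, estimated from barcodes of 100 UMIs or fewer and scaled by collagen transcripts that macrophages should lack, would make up 3.35% and 1.95% of these levels.

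A UMI of *Igf1* was found in 2.98% of the monocyte/macrophage-like cells on day 1 and 28.3% on day 3, at median depths of 11180 and 13808 UMIs. With every cell thinned to 1000 UMIs, which left no cell out, the shares were 0.796% and 4.50%, against 0.0482% and 1.23% of neutrophil-like cells, which should lack it and had medians of 2157 and 1600.5 UMIs. Expression was uneven among the cells. The 10% of day 3 macrophages with most *Igf1* held 71.4% of its UMIs, and the highest cell had 42. The log2 ratio was 2.42 with cells thinned to 1000 UMIs and 2.78 with a stricter call of cells, for which a barcode needed 10% of the UMIs at the 99th percentile, both past 2-fold.

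Across the day 3 macrophage clusters, *Igf1* was highest in the *Gpnmb*-led cluster at 110.1 (95% interval 106 to 115) CPM, followed by the *Stmn1*-led cluster of cycling cells at 66.7 (95% interval 61.1 to 72.6) CPM and the *Rsad2*-led cluster of interferon response genes at 23.8 (95% interval 20.9 to 26.9) CPM. No neighbours in this order had overlapping intervals. It was nearly absent from the *Plac8*- and *Ly6c2*-led cluster, at 0.293 (95% interval 0.00742 to 1.63) CPM on day 3 and 0.496 (95% interval 0.0126 to 2.76) CPM on day 1. On day 1, the *Ppbp*- and *Cd163*-led cluster had 15.6 (95% interval 13.7 to 17.7) CPM, the *Il1a*-led cluster 2.14 (95% interval 1.49 to 3.00) CPM and the *Chil3*-led cluster 0 UMIs in 625 cells. When the day 1 library was clustered on its own, 176 of the 284 macrophage UMIs of *Igf1* lay in a group of 199 cells led by *Ccl8*, *Cd163*, *Folr2* and *Lyve1*, markers of tissue-resident macrophages, at 66.9 (95% interval 57.4 to 77.6) CPM. The other 4 macrophage groups of that clustering lay between 0.155 and 4.54 CPM.

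**Figure D2:**
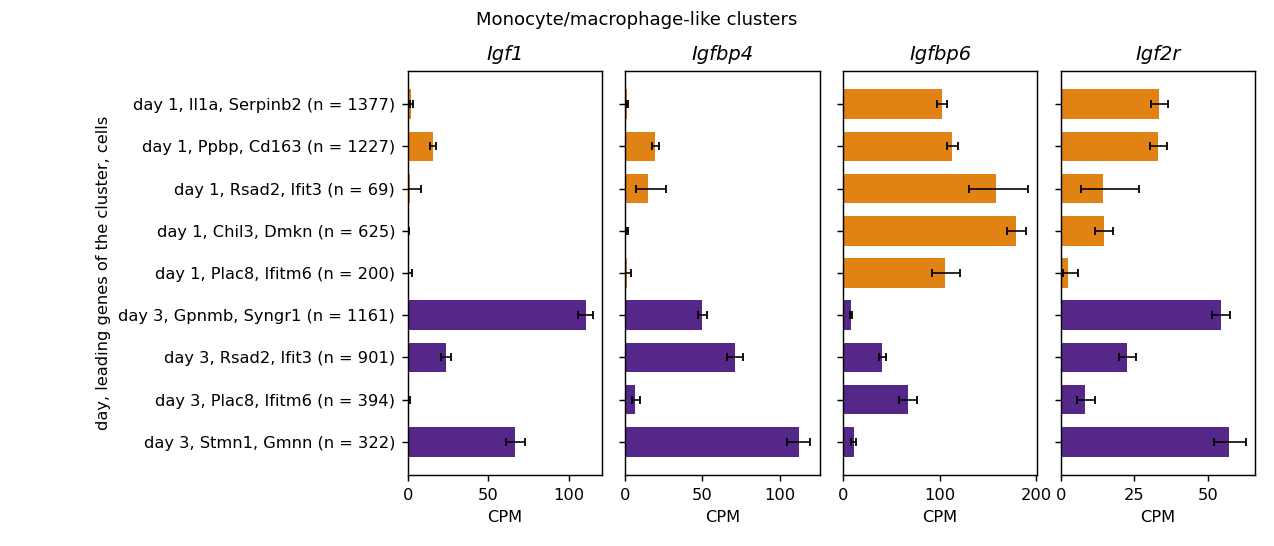
Levels of 4 members (panels, CPM of summed UMIs) are shown as bars in each monocyte/macrophage-like cluster with at least 50 cells on a day, orange for day 1 and purple for day 3, with the 2 leading genes and the number of cells, and whiskers for the 95% interval of counting error. *Igf1* reached 110.1 CPM in the *Gpnmb*-led cluster of day 3, *Igfbp4* 112 CPM in the *Stmn1*-led cluster of day 3, and *Igfbp6* 179 CPM in the *Chil3*-led cluster of day 1.

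In FAP-like cells *Igf1* was at 42.1 CPM (95% interval 39.2 to 45.2) on day 1 and 219 CPM (95% interval 213 to 225) on day 3, a log2 ratio of 2.38 (95% interval 2.27 to 2.49). At 1000 UMIs per cell, 4.55% of FAP-like cells had a UMI on day 1 and 18.7% on day 3. FAP-like cells of day 3 had the highest level of any class, and the intervals of day 3 macrophages and day 1 FAP-like cells, next in order, did not overlap either. With the libraries clustered separately, the 3 FAP-like groups of day 3 all exceeded the 42.0 CPM of the *Dcn*- and *Prg4*-led group of day 1. The *Clec3b*- and *Pi16*-led group had 353 (95% interval 337 to 370.2) CPM, the *Tnc*- and *Acta2*-led group 197 (95% interval 189.6 to 205) CPM, and a group led by the pericyte gene *Rgs5*, which also holds mural and endothelial cells, 161 (95% interval 151 to 170.2) CPM. Without the *Rgs5*-led cells the log2 ratio in FAP-like cells was 2.50. Satellite cell/myoblast-like cells had 2.88 CPM (95% interval 1.88 to 4.23) on day 3, of which ambient RNA would make up 35.8%, and dendritic cell-like cells had 0.586 CPM and 7.82 CPM (95% interval 5.59 to 10.7). In neutrophil-like cells there was 1 UMI on day 1 and 18 on day 3, of which a single cell held 9. Ambient RNA at the share estimated there, 32.7%, would make up 87.1% of the day 3 level. That share would also make up 798% of the *Igfbp5* level in these cells, so it is too high for some genes.

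*Igf2*, the ligand that is abundant in the fetus and in differentiating myoblasts, was the least detected member. It had 16 UMIs over all cells on day 1 and 268 on day 3, of which satellite cell/myoblast-like cells held 62.7% (95% interval 56.6 to 68.5). Their level was 18.6 CPM (95% interval 15.9 to 21.7), with a UMI in 20.9% of the 201 cells at a median of 44223 UMIs, against 0.0708% of macrophages. FAP-like cells had 9 UMIs on day 1 and 62 on day 3, at 0.476 (95% interval 0.218 to 0.904) and 2.55 CPM (95% interval 1.96 to 3.27), a log2 ratio of 2.36 that was 0.78 with cells thinned to 3000 UMIs and -1.94 with 1000. A further 36 UMIs of day 3 came from only 13 cells, a *Rgs5*- and *Tinagl1*-led group with mural and Schwann cell markers, at 313 CPM (95% interval 219 to 433). Dendritic cell-like cells had 0 UMIs on both days, where a floor of 3 UMIs stands for 0.586 CPM on day 1 and 0.587 CPM on day 3, and neutrophil-like cells 3 and 0.

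**Figure D3:**
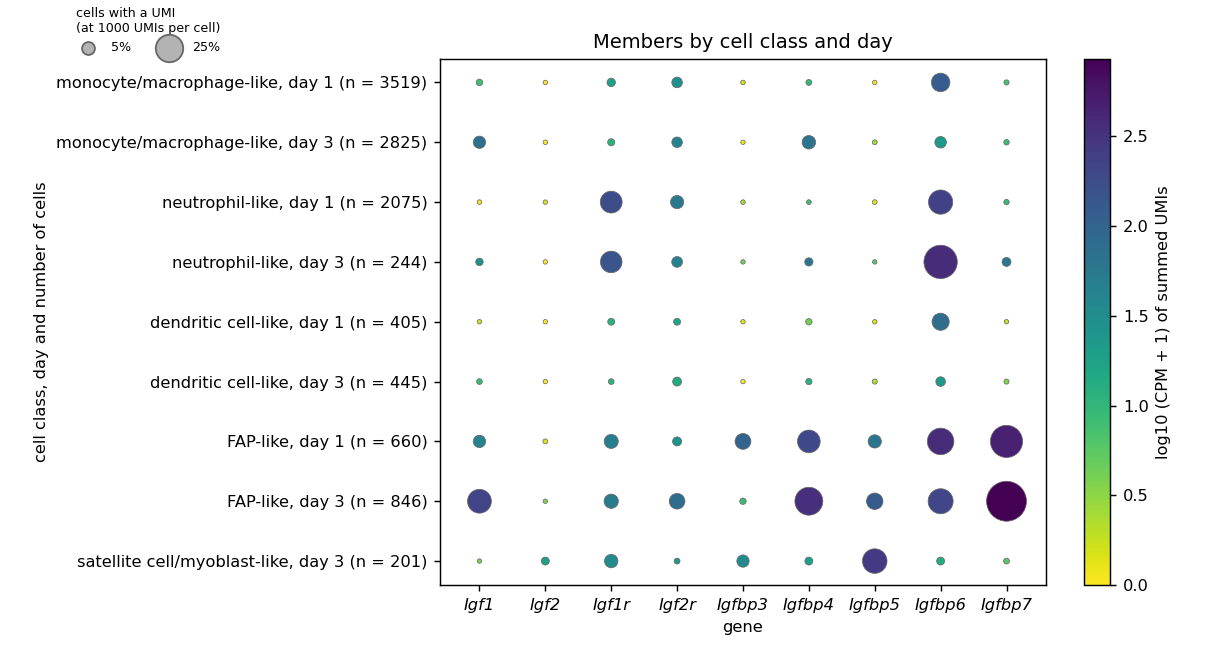
Each circle is 1 member (columns) in 1 cell class and day (rows, with the number of cells). Color gives the log10 of CPM + 1 of summed UMIs, and size the share of cells with a UMI when every cell is thinned to 1000 UMIs. *Igf1r* and *Igfbp6* are large in neutrophil-like cells, at 15.6% and 19.4% of cells on day 1, and *Igfbp7* in FAP-like cells, at 53.7% on day 3.

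*Igf1r*, the signalling receptor, had its highest level in neutrophil-like cells, and the order that follows is that of the classes with at least 50 cells. It was at 179 CPM (95% interval 167 to 191) on day 1 and 143 CPM (95% interval 115 to 176) on day 3, and these neighbours in the order had overlapping intervals. FAP-like cells followed with 48.7 (95% interval 45.6 to 51.9) and 52.6 CPM (95% interval 49.7 to 55.6), whose intervals also overlapped, and satellite cell/myoblast-like cells had 33.7 CPM (95% interval 30.0 to 37.7) on day 3. Monocyte/macrophage-like cells had 17.2 (95% interval 15.9 to 18.5) and 10.5 CPM (95% interval 9.61 to 11.5), and dendritic cell-like cells 10.9 and 9.78 CPM. The level in neutrophil-like cells was not set by 1 group, since the *Acod1*-led and the *S100a9*-led cluster had 173 and 187 CPM on day 1 and 161 and 124 CPM on day 3. At 1000 UMIs per cell, 15.6% and 15.2% of neutrophil-like cells had a UMI, against 1.76% and 1.06% of macrophages. The order is one of levels per UMI. At full depth, 66.5% of FAP-like and 29.9% of neutrophil-like cells of day 1 had a UMI, at medians of 27648.5 and 2157 UMIs. Ambient RNA would make up 0.226% and 7.66% of the neutrophil levels. The log2 ratio between the days was -0.31 (95% interval -0.65 to -0.00) in neutrophil-like, -0.70 (95% interval -0.87 to -0.53) in monocyte/macrophage-like and 0.11 (95% interval -0.01 to 0.24) in FAP-like cells, under 2-fold in each, although centring on the median of well counted genes put macrophages at -1.05. With far fewer neutrophils on day 3, their part of all *Igf1r* UMIs was 34.6% on day 1 and 3.97% on day 3.

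*Igf2r*, the mannose 6-phosphate receptor that removes IGF-2, was found in all 5 classes with at least 50 cells. Monocyte/macrophage-like cells held 57.3% (95% interval 55.1 to 59.5) of its UMIs on day 1 and 46.7% (95% interval 45.2 to 48.3) on day 3. Their level was 28.4 CPM (95% interval 26.8 to 30.1) and 43.5 CPM (95% interval 41.6 to 45.5), a log2 ratio of 0.61 (95% interval 0.51 to 0.72), which is under 2-fold. It was 0.25 when the CPM of single cells were averaged, so that deep cells weigh no more than others. On day 3 the *Stmn1*-led cluster had 57.4 and the *Gpnmb*-led cluster 54.5 CPM, with overlapping intervals, the *Rsad2*-led cluster 22.5 and the *Plac8*-led cluster 8.21 CPM. On day 1 the *Il1a*- and *Ppbp*-led clusters had 33.5 and 33.1 CPM and the *Plac8*-led cluster 2.48 CPM. The lowest level among macrophages was thus in the *Plac8*- and *Ly6c2*-led cluster on both days. In FAP-like cells *Igf2r* was at 26.1 (95% interval 23.8 to 28.5) on day 1 and 77.7 CPM (95% interval 74.2 to 81.3) on day 3, a log2 ratio of 1.57 (95% interval 1.43 to 1.72). Neutrophil-like cells had 53.7 (95% interval 47.6 to 60.4) and 43.9 CPM (95% interval 28.9 to 63.9), with overlapping intervals.

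**Figure D4:**
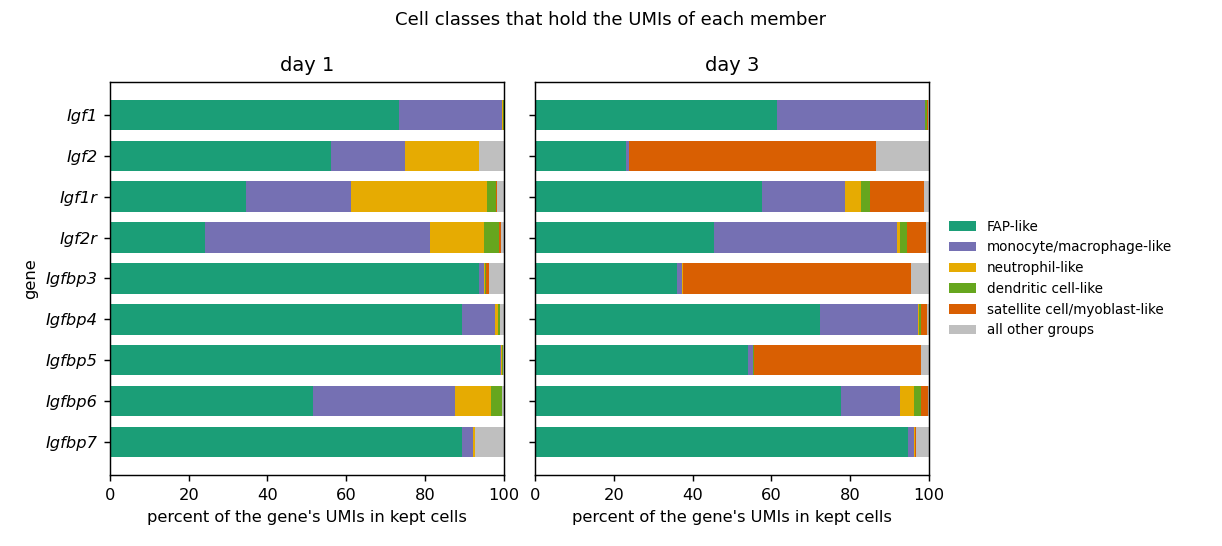
Bars split all UMIs of each member (rows) in the cells kept on day 1 (left) and day 3 (right) by the cell class that holds them, in percent. FAP-like cells hold 89.6% and 94.8% of *Igfbp7*, satellite cell/myoblast-like cells hold 57.8% of *Igfbp3* and 42.4% of *Igfbp5* on day 3, and *Igf2* on day 1 rests on 16 UMIs.

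*Igfbp3*, whose product carries most IGF in the circulation, was mainly a transcript of day 1 FAP-like cells, which held 93.8% (95% interval 92.7 to 94.8) of its UMIs. In FAP-like cells it was at 99.01 CPM (95% interval 94.6 to 104) on day 1 and 7.87 CPM (95% interval 6.79 to 9.06) on day 3, a log2 ratio of -3.65 (95% interval -3.88 to -3.44). The level was low in all 3 FAP-like groups of day 3 clustered on their own, between 7.80 and 10.0 CPM. The 10% of day 1 FAP-like cells with most *Igfbp3* held 72.7% of the *Igfbp3* UMIs. On day 3 satellite cell/myoblast-like cells had the highest level of the named classes with at least 50 cells, 34.1 CPM (95% interval 30.3 to 38.1), with a UMI in 52.7% of cells. In the *Pgf*- and *Cdh5*-led endothelial-like group of day 1, 27 cells held 38 UMIs, at 292 (95% interval 207 to 401) CPM. Myeloid classes with at least 50 cells had at most 3.25 CPM, a level that ambient RNA would make up in full in day 3 neutrophil-like cells.

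*Igfbp4*, the binding protein cleaved by the *Pappa* protease, was highest in FAP-like cells and differed past 2-fold between the days in macrophages, dendritic cell-like and neutrophil-like cells. FAP-like cells had 199.8 CPM (95% interval 193 to 206) on day 1 and 345 CPM (95% interval 337 to 352) on day 3, a log2 ratio of 0.79 (95% interval 0.73 to 0.84), under 2-fold. In monocyte/macrophage-like cells the levels were 8.51 CPM (95% interval 7.64 to 9.45) and 64.2 CPM (95% interval 61.9 to 66.6), a log2 ratio of 2.91 (95% interval 2.76 to 3.08), of which ambient RNA would make up 14.9% and 4.35%. The share of macrophages with a UMI at 1000 UMIs per cell was 0.512% on day 1 and 5.52% on day 3, against 0.741% and 0.674% of dendritic cell-like cells. With the stricter call of cells the log2 ratio in macrophages was 2.33. Unlike *Igf1*, *Igfbp4* was higher in the *Stmn1*-led cycling cluster, 112 (95% interval 105 to 120.0) CPM, than in the *Rsad2*-led, 71.0 (95% interval 66.05 to 76.2) CPM, and the *Gpnmb*-led cluster, 49.8 (95% interval 46.9 to 52.9) CPM, and these intervals did not overlap. The *Plac8*-led cluster was again low, at 6.45 CPM. On day 1 the *Ccl8*- and *Lyve1*-led group of the library clustered on its own had 92.8 (95% interval 81.5 to 105) CPM and 244 of the 351 UMIs of the class, and the *Serpinb2*-led group 0.380 CPM. The difference past 2-fold in neutrophil-like cells, at 6.98 and 60.1 CPM, rested on 36 and 37 UMIs. A single cell held 29 of these on day 1 and a single cell 19 on day 3. It came with an ambient part of 83.9% on day 3. The difference in dendritic cell-like cells, from 3.32 to 11.0 CPM, came with an ambient part of 17.2% on day 3.

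*Igfbp5*, the binding protein induced early in myogenic differentiation, was shared by satellite cell/myoblast-like and FAP-like cells. Satellite cell/myoblast-like cells of day 3 had 271 CPM (95% interval 260.3 to 282) and 42.4% (95% interval 41.2 to 43.7) of the UMIs of that day, with a UMI in 88.1% of cells at a median of 44223 UMIs, against 1.17% of macrophages. FAP-like cells had 59.5 CPM (95% interval 56.1 to 63.1) on day 1 and 128 CPM (95% interval 124 to 133) on day 3, a log2 ratio of 1.11 (95% interval 1.01 to 1.21). That ratio was 0.93 with cells thinned to 3000 UMIs, 0.93 as a mean over single cells and 0.97 when centred on the median of well counted genes, all just under 2-fold. The 3 FAP-like groups of day 3 differed. The *Clec3b*- and *Pi16*-led group had 368 (95% interval 352 to 385) CPM and the *Rgs5*- and *Tnc*-led groups 72.8 and 62.8 CPM, near the 59.7 CPM of the day 1 group. Within FAP-like cells, the 10% of cells with most *Igfbp5* held 90.8% of the UMIs on day 1 and 83.6% on day 3. Monocyte/macrophage-like cells had 3 UMIs on day 1 and 69 on day 3, the latter at 1.54 CPM. The ambient estimate would make up 422% of the day 1 level and 140% of the day 3 level, so it is too high for this gene. The ratio past 2-fold in these cells is therefore not taken as a sign of expression or of its absence. A *Rgs5*- and *Tinagl1*-led group of 13 day 3 cells had 625 (95% interval 489 to 787) CPM.

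*Igfbp6*, a binding protein with a preference for IGF-2, was the member found most widely among myeloid cells on day 1. Its level in monocyte/macrophage-like cells was 119.8 CPM (95% interval 116 to 123) on day 1 and 21.8 CPM (95% interval 20.5 to 23.2) on day 3, a log2 ratio of -2.46 (95% interval -2.56 to -2.36). The ratio was -1.60 with cells thinned to 1000 UMIs. At this depth 11.1% of these cells had a UMI on day 1 and 3.86% on day 3. All 5 macrophage clusters of day 1 with at least 50 cells were above all 4 of day 3. The day 1 clusters ran from 102 CPM in the *Il1a*-led to 179 CPM in the *Chil3*-led cluster, and the day 3 clusters from 8.42 CPM in the *Gpnmb*-led to 66.8 CPM in the *Plac8*-led cluster. In the 2 clusters with at least 50 cells on both days, the level was 159 (95% interval 131 to 191) and 40.5 (95% interval 36.8 to 44.5) CPM for the *Rsad2*-led and 106 (95% interval 92.0 to 121) and 66.8 (95% interval 58.5 to 76.1) CPM for the *Plac8*-led cluster, lower on day 3 in both. Dendritic cell-like cells, nearly all of 1 cluster on both days, had 77.6 CPM (95% interval 70.1 to 85.6) and 22.1 CPM (95% interval 18.2 to 26.6), a log2 ratio of -1.81 (95% interval -2.13 to -1.51). Neutrophil-like cells did not share this direction, with 239.9 CPM (95% interval 227 to 254) on day 1 and 371 CPM (95% interval 324 to 422) on day 3, a log2 ratio of 0.63 (95% interval 0.42 to 0.83), and ambient RNA would make up 1.72% and 12.04%. FAP-like cells had 372 CPM (95% interval 364 to 381) and 208 CPM (95% interval 202 to 213), a log2 ratio of -0.84 (95% interval -0.90 to -0.79), under 2-fold. On day 3 the *Clec3b*- and *Pi16*-led FAP group reached 482 CPM, above the 375 CPM of the day 1 group, while the *Tnc*- and *Rgs5*-led groups had 135 and 131 CPM. Satellite cell/myoblast-like cells had 12.9 CPM (95% interval 10.6 to 15.4) on day 3.

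*Igfbp7*, a secreted protein related to the IGF binding proteins and abundant in vessels, was a stromal transcript on both days. FAP-like cells held 89.6% (95% interval 88.9 to 90.1) and 94.8% (95% interval 94.5 to 95.1) of its UMIs, at 465 CPM (95% interval 456 to 475) on day 1 and 859 CPM (95% interval 847 to 871) on day 3, a log2 ratio of 0.88 (95% interval 0.85 to 0.92), under 2-fold. It was just past 2-fold, at 1.10, with cells thinned to 1000 UMIs and, at 1.07, without the *Rgs5*-led cells. At 1000 UMIs per cell 34.5% and 53.7% of FAP-like cells had a UMI, against 0.256% and 0.354% of macrophages. Higher levels came from small groups. A *Hbb-bs*- and *Gpihbp1*-led group with endothelial markers and hemoglobin transcripts had 2828 CPM (95% interval 2499 to 3188) over 14 cells on day 1 and 4619 CPM (95% interval 4232 to 5032) over 12 cells on day 3. The *Pgf*-led endothelial-like group of day 1 had 1168 (95% interval 989 to 1369) CPM and the *Rgs5*- and *Tinagl1*-led group of day 3 1294 (95% interval 1095 to 1519) CPM. In monocyte/macrophage-like cells the levels were 6.38 and 7.88 CPM, of which ambient RNA would make up 38.1% and 53.0%, and their log2 ratio of 0.30 moved between -0.94 without likely doublets and 2.87 with the libraries clustered separately. Ambient RNA would make up 136% of the 55.3 CPM in neutrophil-like cells of day 3, at the share that was too high for some genes. The ratio past 2-fold there is therefore not taken as a sign of expression or of its absence.

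**Figure D5:**
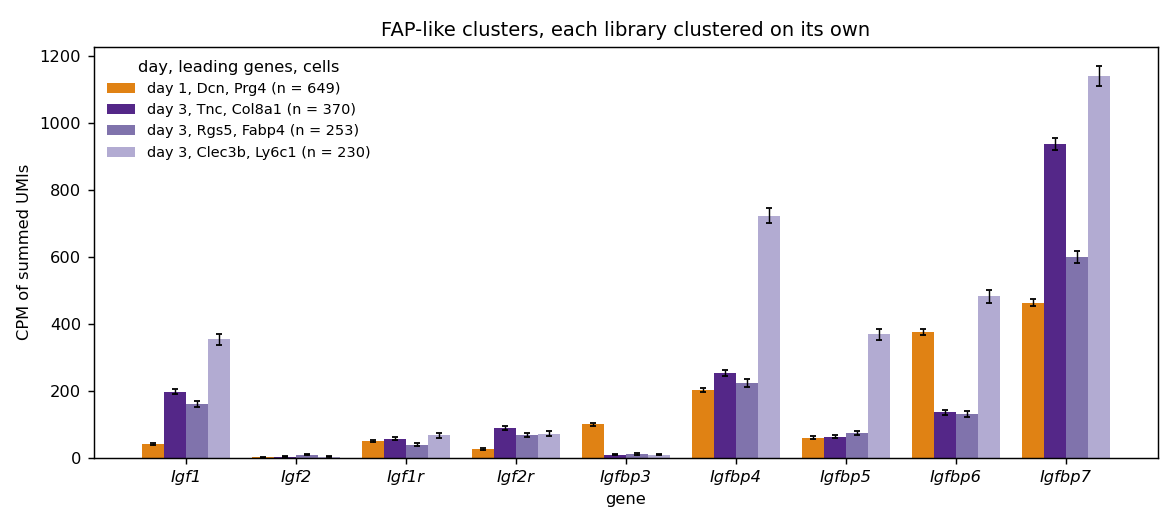
Bars give the CPM of summed UMIs of each member in the groups that the naming rule called FAP-like with the libraries clustered separately, 1 of day 1 (orange) and 3 of day 3 (purple shades), with 95% interval of counting error. The *Clec3b*-led group of day 3 had the highest level of *Igf1*, *Igf1r*, *Igfbp4*, *Igfbp5*, *Igfbp6* and *Igfbp7*, and the day 1 group the highest of *Igfbp3*.

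The *Clec3b*- and *Pi16*-led FAP group of day 3, genes of a progenitor state near vessels and fascia, thus had the highest level of 6 members among the FAP-like groups of both days. For *Igf1r* its 66.8 (95% interval 59.9 to 74.3) CPM overlapped the 56.2 (95% interval 52.1 to 60.6) CPM of the *Tnc*-led group, and for the other 5 the intervals did not overlap those of any other group. For *Igfbp4* it was 723 (95% interval 700.2 to 747) CPM, against 254 (95% interval 245 to 263) CPM in the *Tnc*- and *Acta2*-led group, and for *Igfbp7* 1139.8 (95% interval 1111 to 1169.6) against 938 (95% interval 921 to 955) CPM. *Igf2r* was higher in the *Tnc*-led group, at 87.9 (95% interval 82.7 to 93.3) CPM, than in the *Clec3b*-led group, at 71.4 (95% interval 64.2 to 79.1) CPM.

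The other 45 genes of the axis were counted by list, and each count reads against the share of all genes past 2-fold in the same class. These shares, higher and lower on day 3, were 28.5% and 5.26% in macrophages, 23.2% and 7.15% in FAP-like, 15.7% and 3.69% in dendritic cell-like and 31.2% and 7.23% in neutrophil-like cells. None of the other binding proteins (*Igfbp1*, *Igfbp2*, *Igfbpl1* and the acid labile subunit *Igfals*) had 50 UMIs in a class with both days. *Igfbp1* and *Igfbpl1* had 0 UMIs in either library, and *Igfbp2* was found mainly in satellite cell/myoblast-like cells, at 82.4 CPM (95% interval 76.6 to 88.6) on day 3. Of the proteases and their inhibitors, all 6 had enough UMIs in FAP-like cells. The protease *Pappa* was higher on day 3, at 6.99 and 21.4 CPM, a log2 ratio of 1.61 (95% interval 1.34 to 1.90), and its inhibitor *Stc2* lower, at 3.92 and 1.03 CPM, a log2 ratio of -1.91 (95% interval -2.64 to -1.26). The serine proteases *Htra1* and *Htra3* stayed within 2-fold there, at 0.15 and -0.06. In macrophages *Htra3* was higher on day 3, at 0.630 and 7.68 CPM, and ambient RNA would make up 10.0% of the latter.

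Among related receptors and adaptors, 4 of the 7 with enough UMIs were higher on day 3 in FAP-like cells, against 23.2% of all genes, and 0 were lower. These were the insulin receptor *Insr* (1.35), the receptor substrate *Irs1* (2.02) and the adaptors *Grb10* (2.29) and *Grb14* (1.52), as log2 ratios. *Grb10*, an imprinted adaptor that dampens insulin and IGF-1 receptor signalling, went from 40.6 to 199 CPM. In macrophages, *Insr* (1.18) and *Grb10* (2.33) of the 5 with enough UMIs were higher, the latter at 1.63 CPM on day 3 with an ambient part of 70.3%, and the docking protein *Gab1* was lower, at 83.9 and 18.7 CPM, a log2 ratio of -2.16 (95% interval -2.28 to -2.06). *Gab1* was also lower in dendritic cell-like cells, at -1.60 (95% interval -2.01 to -1.22), where 1 of the 4 with enough UMIs was lower and 0 higher. In neutrophil-like cells 1 of 3, *Irs2*, was higher, near the 31.2% of all genes, with a log2 ratio of 1.32 (95% interval 0.47 to 2.05).

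Signalling genes of PI3K, AKT and mTOR mostly stayed within 2-fold. Of 19 with enough UMIs, 1 was higher on day 3 in macrophages, the catalytic subunit *Pik3cb* (1.53), and 0 were lower in macrophages or FAP-like cells. In FAP-like cells 4 of the 19 were higher, near the 23.2% of all genes, and these included *Pik3cb* (2.42), the regulatory subunit *Pik3r1* (1.37) and *Foxo4* (1.53). In dendritic cell-like cells 1 of 18, *Pik3cb* (1.27), was higher, and in neutrophil-like cells 0 of 13 passed 2-fold in either direction. In the list of the *Igf2* locus and mRNA-binding proteins, the imprinted non-coding RNA *H19*, a neighbour of *Igf2*, was higher in FAP-like cells, at 8.15 and 133 CPM, a log2 ratio of 4.03 (95% interval 3.80 to 4.27). Satellite cell/myoblast-like cells had 252 CPM (95% interval 242 to 263) of *H19* on day 3. Macrophages had 0 UMIs of *H19* on day 1 and 76 on day 3, at least 23.4-fold higher against a floor of 3 UMIs, and ambient RNA would make up 94.9% of the day 3 level. Of the mannose 6-phosphate pathway, *Gnptab*, which makes the mannose 6-phosphate tag, was higher in macrophages, at 19.7 and 54.2 CPM, a log2 ratio of 1.46 (95% interval 1.34 to 1.58), the only 1 of 4 past 2-fold there, and 0 of 4 passed 2-fold in FAP-like or dendritic cell-like cells.

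For the 8 members with at least 500 UMIs, the genes of most similar pattern, up to 3 for each, were found by Pearson correlation of log2(CPM + 1) over the 9 groups of cell class and day with at least 50 cells, among 10375 genes. The 9 groups come from 2 libraries and differ in depth, so the values describe these groups only. *Igf1* was nearest to *Bdh2* (0.97), *Gas6* (0.97) and *S1pr2* (0.97), *Igfbp4* to *Cnrip1* (0.97), *Gpx3* (0.97) and *Aldh6a1* (0.96), and *Igfbp7* to *Mfap5* (0.99), *Dnm1* (0.99) and *Smoc2* (0.98). *Igf1r* was nearest to *Rnf11* (1.00), *Nudt4* (0.98) and *Csf1* (0.96), and *Igf2r*, whose pattern had no close match, to *Arhgap24* (0.89), *Nisch* (0.89) and *Atxn1* (0.88). *Igfbp3* was nearest to *Asns* (0.99) and *Arhgdig* (0.98), and *Igfbp5*, highest in satellite cell/myoblast-like cells, to *Fhl1* (1.00) and *Cdon* (0.99), of which *Cdon* acts in myogenesis. *Igfbp6* was nearest to *Inhba* (0.96), *Ptgs2os* (0.96) and *C3* (0.96).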

How the data were processed

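Single-cell RNA sequencing of mononuclear cells from injured quadriceps at day 1 and day 3 post-injury was re-analysed, with 1 library per day pooled from several mice. The count files that the authors deposited hold raw UMI counts, neither filtered nor normalized, made with a 10x Genomics 3-prime kit. The submitters' processing notes name Cell Ranger 5.0.0 and the build mm10, while the header of the count files names another Cell Ranger version. Whether counting used strand is not given in the sources used here, so reads of genes on opposite strands may not be told apart. Barcodes were ranked by UMIs, the first 7367 (day 1) and 6640 (day 3) were taken, and cells with at least 1000 UMIs, at least 200 genes and at most 7.5% UMIs of mitochondrial genes were kept.

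Both libraries were normalized together with sctransform 0.4.2, called through Seurat 5.3.0 under R 4.3.3, with the difference of cell cycle scores and the mitochondrial share regressed out. The 3000 variable features, less naming markers and genes of the IGF axis, gave 10 PCs, and a resolution of 0.8 gave 14 clusters. The smallest, which mixed cell types, was clustered again into 6 groups. A cluster was named when at least 3 markers of the best list were 2-fold up, unless the 10 leading genes held more markers of another list, first against all other clusters and, where that gave no name, against the lower quartile over clusters. This second step and the re-clustering were chosen after the clusters were seen. Doublets were kept, because the automatic call of Scrublet (scanpy 1.11.5) marked 2 cells of day 1 and 0 of day 3, and an alternative removed the 363 and 171 cells with the highest scores.

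Levels are CPM of summed UMIs with exact Poisson intervals, shares of cells have Clopper-Pearson intervals, and log2 ratios were taken after adding 0.5 to both counts, with exact binomial intervals. UMIs are deduplicated molecules, and the intervals cover counting error only. Shares were also read after thinning each cell to 3000 or 1000 UMIs. Ambient RNA was read in barcodes of 100 UMIs or fewer, and its share of a class was estimated from *Col1a1*, *Col1a2*, *Col3a1* and *Dcn*, or from *S100a8*, *S100a9* and *Csf3r* in stromal classes. Ratios were tested on simulated Poisson counts with known fold changes, which hold no variation between cells, libraries or mice. That run checks the calculation only. Python 3.11.15, numpy 2.4.6, scipy 1.17.1 and pandas 2.3.3 were used. The members and gene lists were chosen with earlier results of these data known. The 9 members are all named. A gene of the other lists is named when it had at least 50 UMIs in a class and differed at least 2-fold, or was at 0, and a few others are named for context. Up to 3 genes of most similar pattern are named for each member with at least 500 UMIs. Some genes that these rules would name are not reported here. Alternatives changed the call of cells, the mitochondrial limit, doublets, normalization, PCs, resolution, clustering, naming, the summary of CPM, ambient RNA, depth, centring and the minimum of UMIs. Protein sequences were not used here.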

Additional observations from a re-analysis of the deposited data

How the results depend on the processing

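No paired analysis was possible because each day has 1 library, and for the same reason no replicate could be left out. The ratios of *Igf1* and *Igfbp4* in monocyte/macrophage-like cells and of *Igf1* in FAP-like cells stayed past 2-fold under every alternative run, and *Igf2r* in monocyte/macrophage-like cells stayed under 2-fold. The log2 ratio of *Igf1* in monocyte/macrophage-like cells was 2.78 with the stricter call of cells, 3.10 and 2.42 with cells thinned to 3000 and 1000 UMIs, 3.07 as a mean over single cells and 3.05 centred on the median of genes with at least 500 UMIs, which was 0.34 there and 0.14 in FAP-like cells. Under these settings in turn, that of *Igfbp4* was 2.33, 3.15, 3.45, 3.11 and 2.57, and it was 2.66 without the *Stmn1*-led cluster. With the stricter call, the *Il1a*-led cluster of day 1 took the name of neutrophils and left the macrophages, and an *Ifitm6*- and *Plac8*-led cluster of 197 cells on day 1 and 291 on day 3 took that name too. That of *Igf2r* was 0.20 and 0.027 with cells thinned to 3000 and 1000 UMIs, 0.25 as a mean over single cells and 0.27 centred. That of *Igf1* in FAP-like cells was 2.53 with each cell named by its own marker score, 2.63 thinned to 3000 UMIs, 2.50 without the *Rgs5*-led cells, 2.51 as a mean over single cells and 2.24 centred. In monocyte/macrophage-like cells, 2 members in place of 1 were at least 2-fold lower with a minimum of 1 UMI and after centring, and in FAP-like cells 2 in place of 4 were at least 2-fold higher with cells thinned to 3000 UMIs, where fewer UMIs remain. *Igfbp5* in macrophages went to -0.12 after ambient RNA was subtracted, and *Igf2* in FAP-like cells to -1.94 with cells thinned to 1000 UMIs, where few UMIs are left, so depth limits what can be read for *Igf2*. Over these 2 and the 10 ratios not named here, 132 of 192 values stayed within the counting interval, 58 lay outside it and 2, just given, changed sign. Thinning to 1000 UMIs and the runs without the *Stmn1*-, *Plac8*- or *Rgs5*-led cells were chosen after seeing the data.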
